A study of Mus musculus with 4 samples.

Results

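CTCF occupancy was examined at 47 ribosomal protein genes, out of 21887 mouse protein-coding genes with a RefSeq span. The members were a list of genes named Rpl, Rplp and Rps: 30 encode proteins of the large ribosomal subunit, 2 of them proteins of its stalk (Rplp0 and Rplp1), and 17 encode proteins of the small subunit. Each gene was taken with 10 kb on either side of its span, and CTCF peaks of 4 embryonic tissues that shared at least 1 base were merged into regions. These windows held 168 regions out of 121759 in the genome, and no region fell in the windows of more than 1 member. The members' spans ran from 0.982 to 9.65 kb, with a median of 3.27 kb, and lay on 18 chromosomes, 8 of them on chromosome 7 and 5 on chromosome 11.

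All tissues came from wild-type mouse embryos of the B6CBAF1 background and were profiled by chromatin immunoprecipitation with an antibody to CTCF, followed by sequencing (ChIP-seq). The posterior trunk pooled about 30 embryos at embryonic day 10 (E10); it comprised tailbud and presomitic mesoderm plus some somite pairs, and the dissection avoided hindlimb buds where it could. The brain library came from the telencephalon of 6 embryos at E12.5. The distal and the proximal forelimb were also taken at E12.5, and both are titled as re-analyses of earlier data. Each tissue was 1 library without a replicate, so no difference between tissues could be tested, and stage, dissection, library and depth cannot be told apart. The tissue labels were not checked against marker genes, because the files hold CTCF peaks and no expression values.

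Ribosomal protein genes encode the structural proteins of the ribosome, and all growing cells transcribe them at high rates from compact promoters. Many of these promoters start transcription at a pyrimidine-rich initiator rather than at a TATA box. CTCF is a zinc-finger protein that binds a long, GC-rich motif, anchors chromatin loops together with cohesin, and is also found at many promoters.

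The list of the proximal forelimb was the shortest, with 63873 peaks, followed by the distal forelimb with 64793, the brain with 74127 and the posterior trunk with 106662. Read pileups recovered from the deposited fold and p of each peak gave lowest local backgrounds of 9.34, 8.53, 4.23 and 4.58 in posterior trunk, brain and the distal and proximal forelimb, or 2.21, 2.02, 1.0 and 1.08 times that of the distal forelimb. Sets of 4 values below follow this order of tissues unless they name it. The posterior trunk list was therefore the longest and, by this measure, the deepest. Within each list, peaks were ranked by the authors' p, with the strongest at a percentile of 100, and folds are the authors' enrichment over local background. Both describe a peak within its own list, and neither measures a change between tissues.

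Of the 47 members, 39 were matched by symbol in the RefSeq promoter table (assembly GRCm38.p6, which is mm10), which also gave their strand and 47 listed transcription starts. The other 8 were Rpl3, Rpl7, Rpl8, Rpl30, Rpl32, Rplp1, Rps14 and Rps20. At 11 of these 39 genes, or 28.2%, a region called in all 4 tissues had its strongest summit within 300 bases of a listed start, against 11.5% of the 17492 protein-coding genes with a listed start and 7.44% of those with a span of at most 10 kb. The 6 promoters printed here are those with the best ranked regions among the genes of that group whose summit lay within the printed stretch, which leaves out Rpl37, and they show where in a promoter the summits fell. Each runs 5′ to 3′ on the gene's own strand, with the 200 bases before the listed start and the first 10 from it, and capitals mark the 41 bases centred on the strongest summit. Rpl11 lies on the minus strand at chr4:136053384-136053593, and the other 5 lie on the plus strand: Rpl5 at chr5:107900328-107900537, Rplp0 at chr5:115559267-115559476, Rpl26 at chr11:68901366-68901575, Rpl10a at chr17:28328271-28328480 and Rpl27 at chr11:101442045-101442254.
Rpl11: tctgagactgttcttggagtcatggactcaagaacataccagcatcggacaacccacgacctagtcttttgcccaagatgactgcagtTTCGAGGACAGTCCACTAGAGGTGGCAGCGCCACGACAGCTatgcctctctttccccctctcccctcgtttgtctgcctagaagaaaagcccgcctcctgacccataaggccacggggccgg
Rpl5: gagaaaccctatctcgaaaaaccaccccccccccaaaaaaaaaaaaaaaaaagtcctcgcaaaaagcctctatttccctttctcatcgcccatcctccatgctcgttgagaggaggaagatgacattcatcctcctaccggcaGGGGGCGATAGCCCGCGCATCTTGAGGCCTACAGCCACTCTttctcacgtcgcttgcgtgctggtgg
Rplp0: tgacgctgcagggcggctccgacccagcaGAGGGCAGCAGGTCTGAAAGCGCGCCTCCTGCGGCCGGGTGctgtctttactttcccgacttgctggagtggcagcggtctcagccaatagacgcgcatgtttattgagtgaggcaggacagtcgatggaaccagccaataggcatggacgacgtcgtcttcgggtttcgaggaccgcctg
Rpl26: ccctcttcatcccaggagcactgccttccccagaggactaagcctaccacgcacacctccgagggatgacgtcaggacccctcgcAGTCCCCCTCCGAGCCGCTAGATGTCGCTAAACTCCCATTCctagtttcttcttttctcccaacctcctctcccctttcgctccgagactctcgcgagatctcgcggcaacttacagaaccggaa
Rpl10a: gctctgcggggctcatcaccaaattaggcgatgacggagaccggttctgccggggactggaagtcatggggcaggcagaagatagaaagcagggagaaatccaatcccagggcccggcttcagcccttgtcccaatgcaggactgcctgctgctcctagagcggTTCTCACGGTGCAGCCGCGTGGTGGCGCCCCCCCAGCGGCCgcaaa
Rpl27: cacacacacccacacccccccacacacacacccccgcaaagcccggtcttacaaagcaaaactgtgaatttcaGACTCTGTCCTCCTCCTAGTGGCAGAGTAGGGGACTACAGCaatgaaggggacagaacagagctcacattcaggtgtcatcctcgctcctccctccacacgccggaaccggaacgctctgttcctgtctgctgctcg

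In these 6 sequences the summit lay 92 bases before the start of Rpl11, 37 before that of Rpl5, 151 before that of Rplp0, 95 before that of Rpl26, 16 before that of Rpl10a and 107 before that of Rpl27. GC content of the printed stretches ranged from 52.4% for Rpl5 to 63.3% for Rpl10a. The capitals of Rpl11 held AGGTGGC, from 93 to 87 bases before the start, and those of Rpl5 held GGGGGC, from 57 to 52 bases before it. In Rpl5 the base just before the capitals is an a, so AGGGGGC crosses their edge and was not counted in the search of capitals below. In Rpl10a, GGTGGC lay from 16 to 11 bases before the start, directly beside GGGGGC read on the opposite strand. Rplp0 held CCAGCAGAGGGC from 177 to 166 bases before its start, at the upstream edge of its capitals. Neither Rpl26 nor Rpl27 had a match to the shorter cores searched below in its capitals.

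A CTCF region lay within 1 kb of at least 1 end of the gene at 36 of the 47 members, or 76.6%, where the same held for 49.7% of all protein-coding genes. Because the members are short, the share of 38.8% among the 7926 protein-coding genes with a span of at most 10 kb is given as well. These genes match the members in span only. No region lay in the window at 29.4% of them, against 14.6% of all protein-coding genes. A region called in all 4 tissues lay that close to 26 members, or 55.3%, against 29.4% of all protein-coding genes and 23.5% of the short ones. Without the posterior trunk library, 61.7% of the members had a region within 1 kb, against 38.6% of all protein-coding genes. Other gene lists of the translation and protein turnover machinery also stood above 49.7%: a region within 1 kb was present at 27 of 38 other cytosolic ribosomal protein genes (71.1%), at 57 of 78 mitochondrial ribosomal protein genes (73.1%), at 30 of 48 translation factors (62.5%) and at 18 of 31 proteasome subunit genes (58.1%). Regions called in all 4 tissues were that near at 44.7%, 43.6%, 37.5% and 41.9% of these lists. The plot of shares by gene list places the members at the upper end of a range in which the 5 lists of this machinery lie, above both backgrounds. No test of the lists against each other was made.

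**Figure D1:**
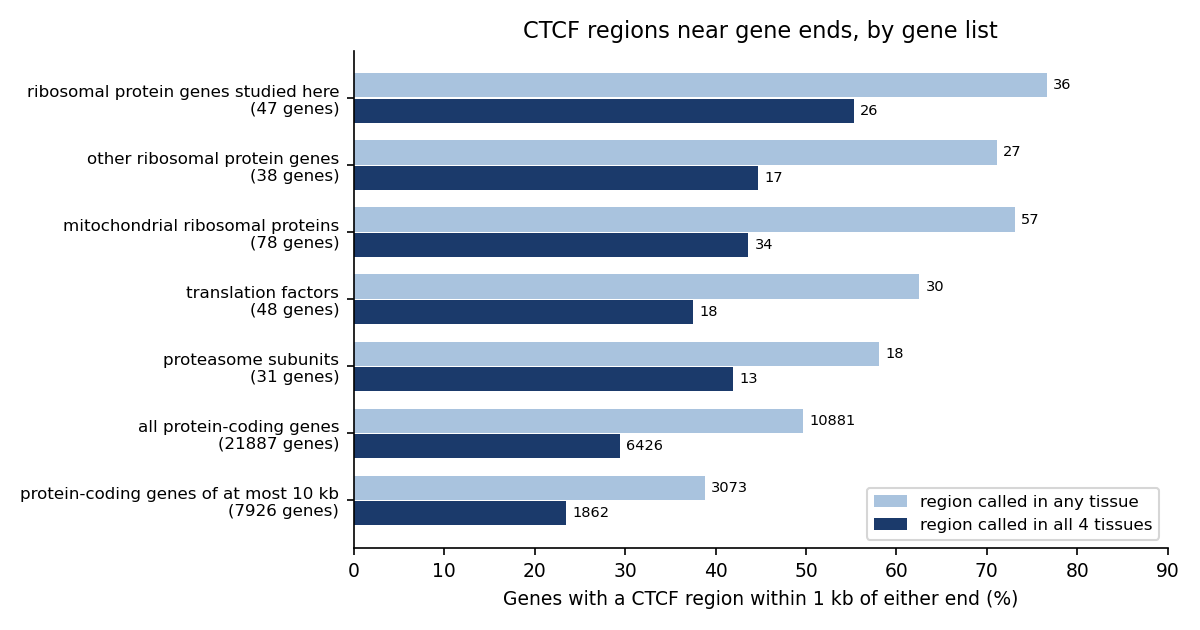
Share of genes (percent, horizontal axis) with a CTCF region within 1 kb of either end, by gene list, for regions called in any tissue and regions called in all 4. The members reach 76.6% and 55.3%, all protein-coding genes 49.7% and 29.4%, and short protein-coding genes 38.8% and 23.5%.

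Per tissue, a peak within 1 kb was listed at 36 members in posterior trunk (76.6%, against 47.4% of protein-coding genes), 30 in brain (63.8%, against 35.6%), 27 in distal forelimb (57.4%, against 33.4%) and 28 in proximal forelimb (59.6%, against 33.4%). Every member with a region in another tissue also had one in posterior trunk, the longest list. Of all protein-coding genes, 10881 had such a region in any tissue and 10372 had one in posterior trunk. After the thinning described below, the only such region of Rps3 was called in distal forelimb only. The 36 genes carried 54 such regions: 23 genes had 1, 9 had 2, 3 had 3 and Rpl19 had 4. Of the regions, 32 were called in all 4 tissues, 9 in 2 or 3 tissues and 13 in 1 tissue. The summits of the 32 shared regions were placed almost at the same base in every tissue, with a median spread of 17.5 bases and a largest spread of 53 bases, at Rpl34. Shared regions genome-wide had a median spread of 19 bases. Other protein-coding genes ended or began within 1 kb of some of them, such as Zwilch and Snapc5 beside Rpl4, Med22 beside Rpl7a, Fam83e beside Rpl18 and Card6 beside Rpl37, so these regions cannot be assigned to the ribosomal protein gene alone.

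The regions lay at both ends of the genes. Among the 39 members with a strand, 17 (43.6%) had a region called in all 4 tissues within 1 kb of the 5′ end, against 22.0% of protein-coding genes and 16.1% of those of at most 10 kb. At the 3′ end the count was 10 (25.6%), against 9.84% and 9.71%. In any tissue, the counts were 25 (64.1%, against 40.6%) at the 5′ end and 14 (35.9%, against 16.9%) at the 3′ end. Of the 54 regions, 29 were nearest the 5′ end, 17 were nearest the 3′ end, and 8 belonged to genes without a listed strand. Among the 32 shared regions, 14 covered an end of the gene and 5 lay inside its span. The map of the windows shows the shared regions in a column over the starts and a looser group past the far ends.

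**Figure D2:**
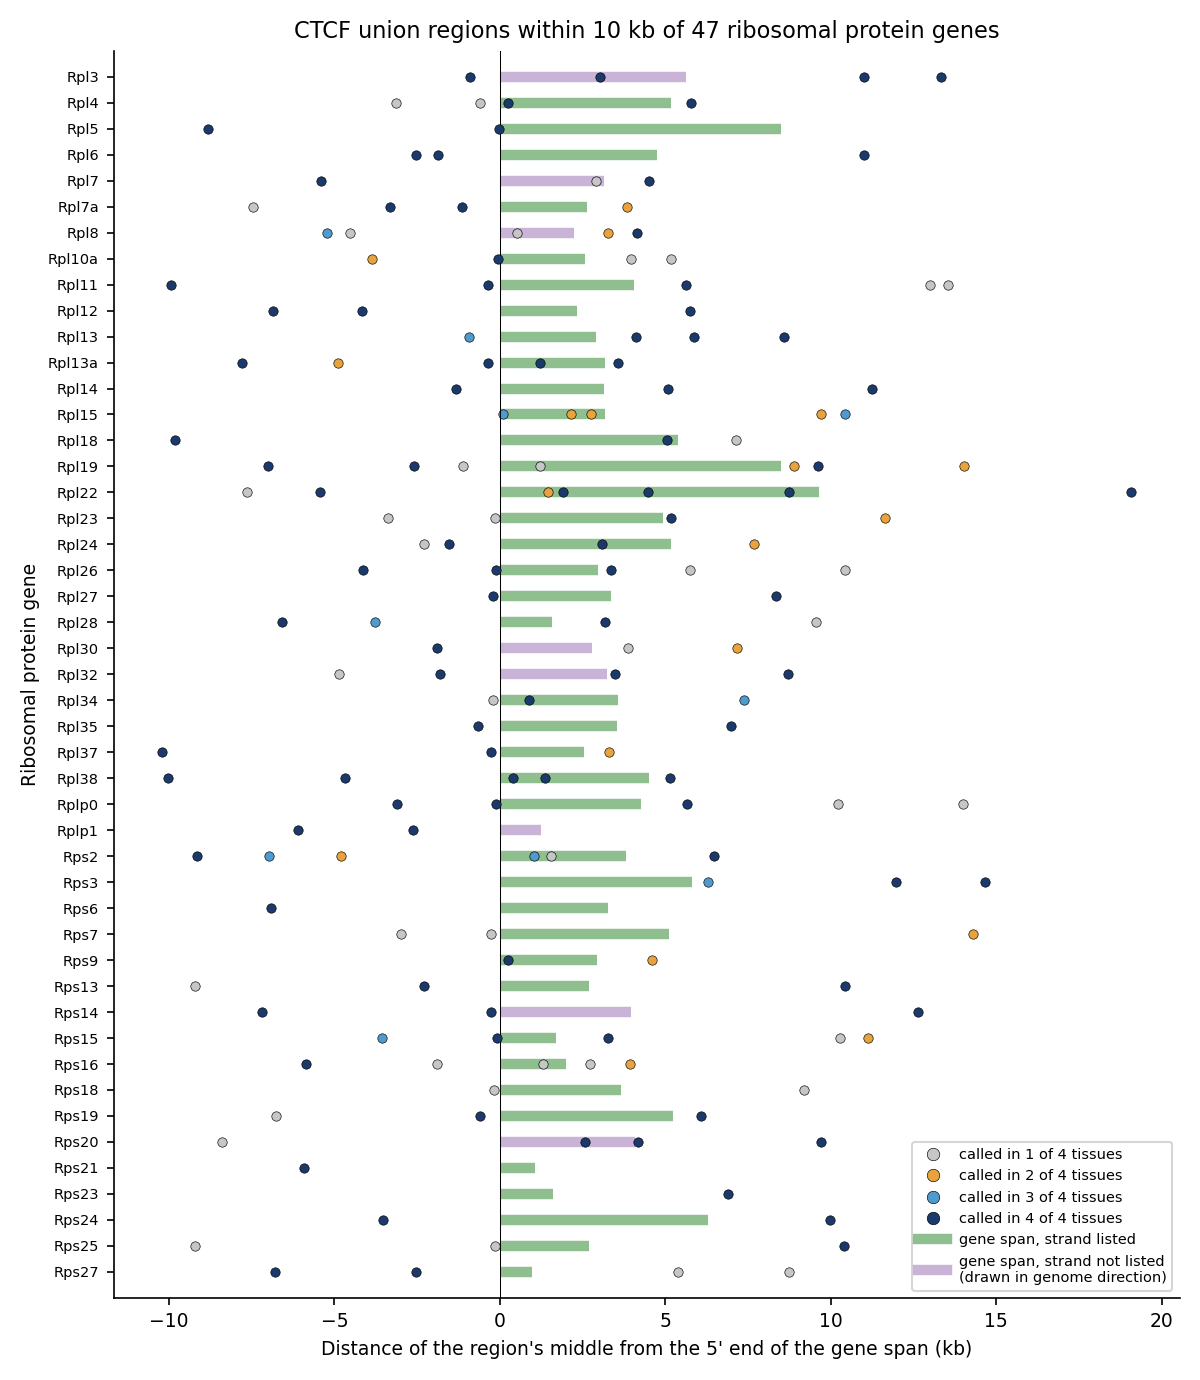
Every region in the windows of the 47 members, 1 line per gene, by distance of its middle from the 5′ end of the span in kb (genes without a listed strand are drawn in genome direction), coloured by the number of tissues in which it was called. All 4 tissues called 98 of the 168 regions, and posterior trunk alone called 35.

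Around the listed starts, the share of genes with a summit of a shared region was highest in the 500 bases just upstream, at 10 of 39 members (25.6%), where all protein-coding genes had 9.96%. A second high bin lay from 3000 to 3500 bases downstream, at 5 of 39 members (12.8%, against 1.85%). Of these regions, only that of Rpl26 lay within 1 kb of an end of its own member, and that of Rps15 lay within 1 kb of an end of Apc2. Summits of the 11 start regions lay upstream of the start at 9 genes (81.8%), with a median offset of -92 bases. Over all protein-coding genes, 67.9% of 2034 pairs of a start and a shared region had the summit upstream, with a median offset of -65 bases. In any tissue, a summit lay within 300 bases of a listed start at 18 members (46.2%, against 22.5%).

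**Figure D3:**
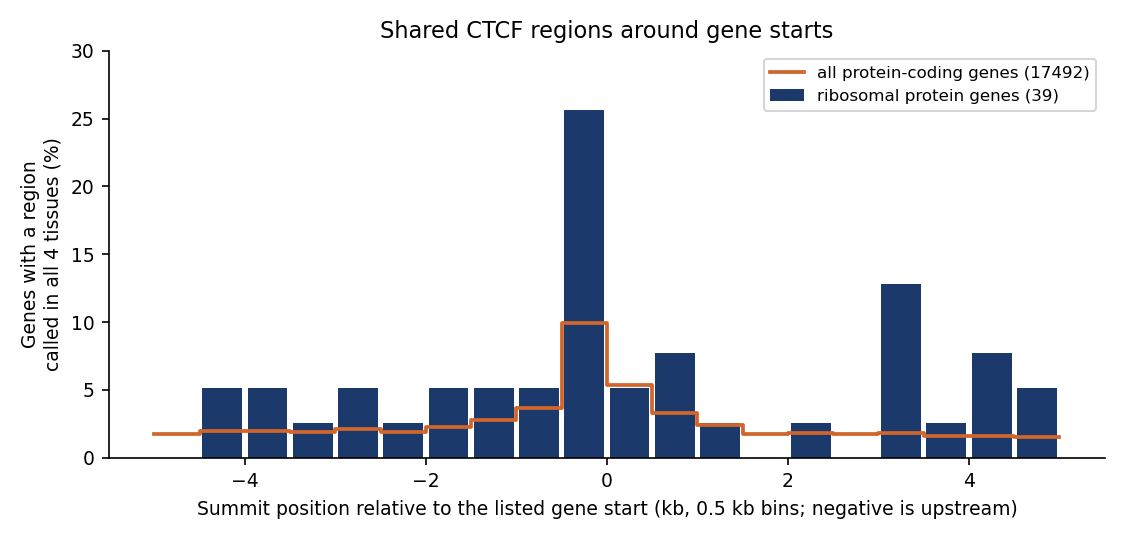
Share of genes (percent) with the summit of a region called in all 4 tissues, in 500-base bins of distance from the listed start, for the members and for all protein-coding genes. The members reach 25.6% in the bin just upstream, where all protein-coding genes have 9.96%.

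A shared region lay within 1 kb of 21 of the 30 large subunit members (70.0%) and of 5 of the 17 small subunit members (29.4%), where all protein-coding genes had 29.4% and short ones 23.5%. The other cytosolic ribosomal protein genes named for a subunit had the opposite order, with 7 of 20 (35.0%) for the large and 10 of 15 (66.7%) for the small subunit, so the order did not extend beyond the members. The 12 members with the best ranked shared regions came from these 26 genes, 21 of them large subunit genes, and 10 of the 12 encode large subunit proteins. Rpl11 and Rpl5 bind a small ribosomal RNA together and, when ribosome assembly is disturbed, bind Mdm2 and so stabilise p53. At Rpl11 the start region (chr4:136053237-136054286) ranked at percentile 98.4, 98.9, 98.4 and 98.7, with folds of 13.3, 16.4, 18.9 and 18.5. The Rpl5 start region (chr5:107900197-107900750) ranked at 92.8, 94.3, 96.2 and 97.0. Both promoters thus held a peak above percentile 90 of every list, with summits that differed by 14 bases or fewer between tissues. Rplp0, which holds the acidic stalk proteins on the ribosome, had a start region (chr5:115559104-115559591) at 91.4, 95, 97.6 and 98.8. Its stalk partner Rplp1 had no region within 1 kb, and its nearest shared region was 2433 bases away.

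Other large subunit genes had start regions of like rank. Rpl10a encodes the protein of the flexible stalk beside the exit site of the ribosome, and its start region (chr17:28328119-28328699) ranked at 90, 94.7, 98.2 and 97.4. For Rpl26, whose protein sits by the exit of the peptide tunnel, the values were 91.3, 91.9, 93.5 and 94.9 (chr11:68901242-68901682). The start region of Rpl37 (chr15:5115994-5116688) ranked at 92.6, 88.5, 85.4 and 89.0, and its summit lay 264 bases before the start. Card6, a gene next to Rpl37, had an end within 1 kb of the same region. The Rpl27 region (chr11:101441692-101442397) ranked at 89.0, 83.6, 82.8 and 83.7. All 4 start regions ranked above percentile 80 in every list.

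Rpl38 is needed for the translation of a set of Hox mRNAs, and its loss in mice alters the axial skeleton. It had 2 shared regions within 1 kb of an end: the start region (chr11:114667793-114668659) ranked at 81.6, 79.8, 78.2 and 79.7, and one 386 bases past the 3′ end (chr11:114672719-114673192) ranked at 71.3, 72.0, 64.6 and 73.2. The listed start of Rpl38 lies more than 500 bases inside its span, as do those of Rpl18, Rpl19 and Rps2. Rpl4, which lines the peptide tunnel, also had a shared region at each end, with percentiles of 55.1, 57.5, 62.7 and 50.7 at the 5′ end and 78.8, 73.2, 70.4 and 71.9 at the 3′ end. Its 5′ region had its summit 244 bases inside the gene. Rpl13a, which takes part in a complex that silences inflammatory mRNAs, had 3 shared regions within 1 kb. The one 128 bases before its 5′ end (chr7:45128873-45129366) ranked at 82.7, 84.3, 83.6 and 86.4, above the other 2, which ranked between 39.5 and 69.4.

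Some high ranks lay away from the start. At Rpl22, required for the development of T cells with alpha-beta receptors, the region (chr4:152332884-152333441) lay inside the span, 641 bases from the 3′ end, and ranked at 94.2, 97.0, 96.6 and 98.3. Rpl19, whose protein reaches across to the small subunit, had its shared region 744 bases past the 3′ end (chr11:98031237-98032010), at 91.0, 95.9, 94.1 and 94.6. These positions place the strongest near region of both genes at the far end from the promoter.

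The other 2 of the 12 encode small subunit proteins. Mutations of RPS19 cause Diamond-Blackfan anaemia in people, and mouse Rps19 had a region 482 bases past its 3′ end (chr7:24890293-24891022) with percentiles of 96.2, 99.0, 98.4 and 99.4. A weaker region, 349 bases before its 5′ end, ranked at 75.7, 75.6, 76.5 and 81.3. Rps14 is the gene whose reduced dosage causes the anaemia of a myelodysplastic syndrome, and the region over 1 end of its span (chr18:60774010-60774626) ranked at 96.6, 93.5, 92.2 and 93.2. Rps15, whose protein lies in the head of the small subunit, had a start region (chr10:80292116-80292558) at 69.1, 76.4, 83.5 and 82.3. Outside posterior trunk, the lowest percentiles of a shared start region were those of Rps9, with its summit 163 bases inside the gene (chr7:3703976-3704422), at 63.9, 37.1, 15 and 19.4. It therefore ranked above the middle of the posterior trunk list and near the bottom of both forelimb lists.

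The 32 shared regions had median percentiles of 76.4, 75.5, 74.7 and 76.5. Shared regions within 1 kb of any protein-coding gene, 6480 in number, had medians of 74.9, 67.4, 64.1 and 65.1, and all 51657 shared regions had 75.8, 65.0, 59.9 and 59.4. In each of the 4 lists, 9 of the 32 (28.1%) were at percentile 90 or above, against 22.4%, 18.6%, 18% and 18.8% of the shared regions near any protein-coding gene. The members' medians were thus close to this background in posterior trunk and higher than it in the other 3 lists, and the difference was not tested. The plot of percentiles gives these values for the 12 members with the best ranked regions.

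**Figure D4:**
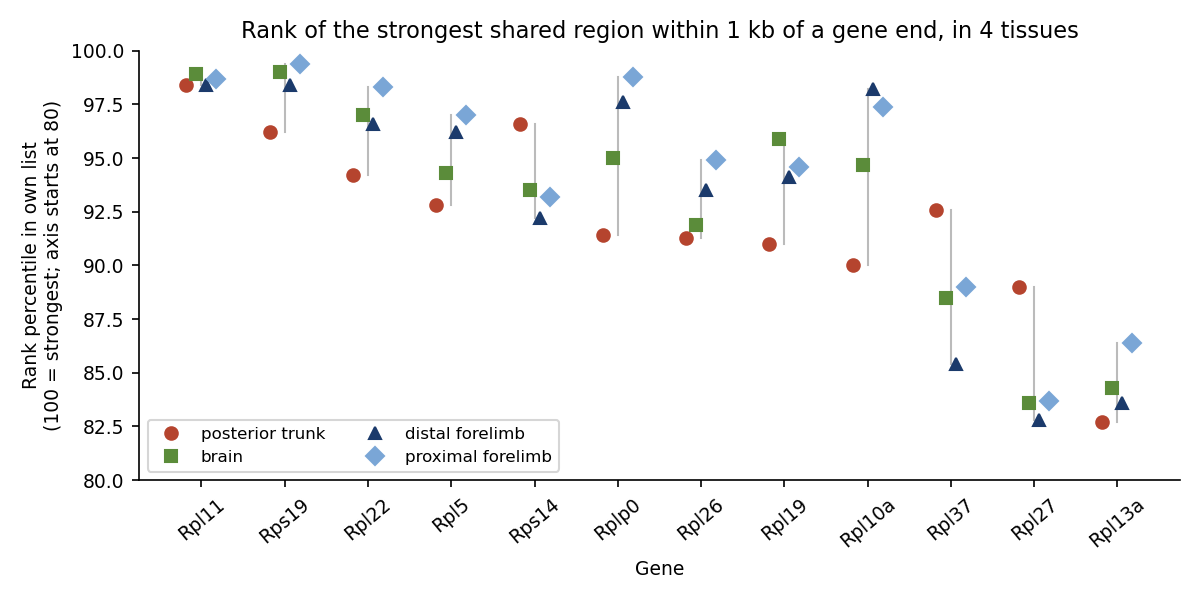
Rank percentile of the best shared region within 1 kb (vertical axis, strongest 100) in each of the 4 tissue lists, for the 12 members with the highest lowest percentile. Rpl11 sits between 98.4 and 98.9, and all 12 lie above 80 in every list; the lists differ in length, so heights do not compare tissues.

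Regions seen in 1 tissue only were weaker. A region called in posterior trunk only lay within 1 kb of 11 members (23.4%, against 16.3% of protein-coding genes), and none was called only in brain (against 1.67%), only in distal forelimb (against 0.909%) or only in proximal forelimb (against 0.672%). Among the large subunit genes, the posterior trunk percentiles of these regions were 30.2 at Rpl4, 62.3 at Rpl7, 29.9 at Rpl8, 32.1 and 56.5 at Rpl19, 16.0 at Rpl23, 24.0 at Rpl30 and 18.1 at Rpl34. Among the small subunit genes they were 21.3 at Rps7, 9.27 and 28.8 at Rps16, 25.1 at Rps18 and 14.8 at Rps25. All but those of Rpl7 and 1 region of Rpl19 thus lay at percentile 32.1 or below. At Rpl7 the region (chr1:16104013-16104408) lay inside the span, 25 bases from its end, with a fold of 5.47. When pileups and backgrounds were thinned to the lowest local background of the distal forelimb and a common p was set, 8 of the 13 remained called in posterior trunk only, and the regions of Rpl23, Rpl34, Rps7, Rps25 and the weaker one of Rps16 were not called in any tissue. All 32 shared regions stayed called in all 4 tissues under the same thinning. Over the genome, regions called in all 4 tissues went from 51657 to 49116, and those in posterior trunk only from 34525 to 18016. Of the 5 regions near members called in posterior trunk and brain, 2 were no longer called and 1 stayed in posterior trunk only. The region of Rps3 and that at the start of Rpl15 were each left in 1 tissue.

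At 7 other members, a region at the start was called in fewer than 4 tissues. Start summits in any tissue were present at 46.2% of the members, against 22.5% of protein-coding genes. Those of regions called in all 4 tissues were present at 28.2%, against 11.5%. The start region was called in posterior trunk only at Rpl23, Rpl34, Rps7, Rps18 and Rps25, with summits 152, 190, 275, 152 and 133 bases before the start. At Rpl22 a start region was called in posterior trunk and proximal forelimb, and at Rpl15 in posterior trunk, brain and proximal forelimb. The Rpl15 region ranked at 18.3, 6.06 and 5.5 in these lists, and its summits were spread over 200 bases, farther than at any shared region near the members. Another gene, Nkiras1, had an end within 1 kb of it. Rps3, which also has a role in DNA repair, had only a weak region 313 bases past its 3′ end, at 12.6 in posterior trunk, 8.95 in brain and 20 in distal forelimb.

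The other 11 members had no region within 1 kb: Rpl6, Rpl12, Rpl24, Rpl28, Rplp1, Rps6, Rps13, Rps21, Rps23, Rps24 and Rps27. Their nearest regions were all called in all 4 tissues. Rps6, whose protein is phosphorylated by kinases that mTOR signalling activates, had the most distant one, 6619 bases away, followed by Rps21 at 5541 and Rps23 at 4911 bases. For these 3 genes it was the only region in the window. The members just outside the 1 kb distance were Rpl24, 1297 bases from a region, and Rpl28, at 1313 bases. The members just inside it were Rpl30, at 949, and Rpl7a, at 958 bases.

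Over the full windows, every member had at least 1 region, where 14.6% of protein-coding genes had none. The windows held 1.5 regions per 10 kb, against 0.666 for all protein-coding genes and 0.807 for the short ones. Of regions called in all 4 tissues they held 0.877 per 10 kb, against 0.316 for all protein-coding genes and 0.436 for the short ones. The number of regions per window ran from 1 to 7, with the most at Rpl19 and Rpl22. Of the 168 regions, 98 (58.3%) were called in all 4 tissues, against 47.5% in the windows of all protein-coding genes and 54.0% in those of the short ones. Posterior trunk alone accounted for 35 (20.8%, against 26.8% in the windows of all protein-coding genes and 23.3% in those of the short ones). Posterior trunk and brain, without the forelimb parts, called 15 (8.93%, against 5.46% of all 121759 regions). Brain alone called 5 (2.98%, against 5.92% of all regions). Proximal forelimb alone called 1 (0.595%, against 2.23%), and distal forelimb alone called none (against 3.11%). Only Rpl15, Rps7 and Rps18 (6.38% of the members) had no region called in all 4 tissues in the window. The same held for 27.0% of all protein-coding genes and 45.6% of the short ones. With lists of equal length, all 4 tissues called 70.9% of the regions in the windows and posterior trunk alone called 5.22%, so the split between tissues depended on the length of the lists.

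To compare order between tissues over the same regions, percentiles were computed again among the 51657 regions called in all 4 lists. At the 11 start regions of the members, the posterior trunk percentile was lower than the mean of the forelimb parts at 9 (81.8%), with a median difference of -10.7 points. The same was so at 77.9% of the 1952 shared regions at any protein-coding start, with a median of -8.68, and at 49.3% of all shared regions, with a median of 0.171. For the members' starts, the 95% interval of the median ran from -31.8 to 0.562 points, and that of the share from 48.2% to 97.7%. Both intervals treat the 11 regions as independent draws from 1 library per tissue, so they describe spread between regions and test no difference between tissues. The range for the median held both no difference and the -8.68 of all protein-coding starts. With regions ranked by fold instead of p, the median difference was -22.8 points at the members' starts and -11.4 at all protein-coding starts, and 90.9% and 80.7% were lower in posterior trunk, so the members were closer to starts in general by p than by fold. Rps15 differed most: 36.6, 66.2, 79.3 and 78.1, a difference of -42.1 points. Rpl4 followed at -31.8, Rpl10a at -18 and Rplp0 at -15.5. Rps9 went the other way by 20.8 points, from 26.9 in posterior trunk to 4.42 and 7.91 in the forelimb parts, and Rpl37 by 0.562.

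By medians, brain stood between posterior trunk and forelimb at these starts, lower than forelimb at 9 of 11 members (81.8%, against 67.4% of protein-coding starts and 49.4% of all shared regions), with a median difference of -3.88 points. The other 87 shared regions in the members' windows had a median difference between posterior trunk and forelimb of -5.21 points, and 61 of them (70.1%) were lower in posterior trunk. Local background at the members' start regions was a median of 2.92, 2.27, 3.03 and 2.82 times the lowest of the same list. For all shared regions, those medians were 1.91, 1.60, 1.69 and 1.63. At Rps15 the pileups were 183, 221, 180 and 169 reads over backgrounds of 27.3, 23.6, 14.2 and 13.5, so the posterior trunk pileup was close to that of the forelimb over a larger background. At Rpl11 they were 377, 339, 267 and 270 over 27.4, 19.7, 13.2 and 13.6. The part of local background in the rank difference was not tested. With all libraries thinned to the same lowest local background, which stands for equal depth only if backgrounds were set alike in the 4 calls, the median difference at the members' starts was -11.4 points. The highest pileups of the lists were 399, 393, 368 and 365, closer together than their lowest backgrounds of 9.34, 8.53, 4.23 and 4.58. Whether thinning by 1 factor per library matches depth at high pileups was not tested.

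**Figure D5:**
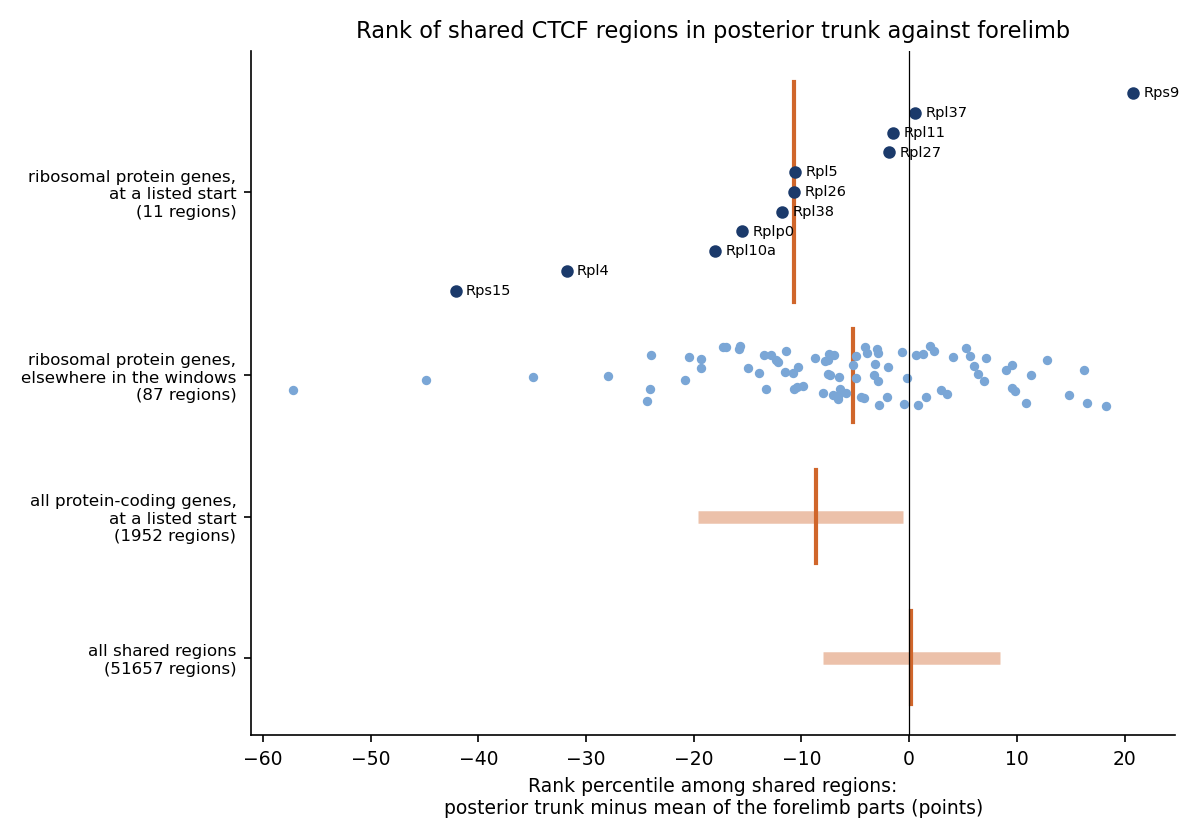
Percentile among shared regions in posterior trunk minus the mean of the forelimb parts (points, horizontal axis), with dots for single regions, upright lines for medians and bars from the lower to the upper quartile of the larger sets. The members' start regions have a median of -10.7 and all protein-coding starts -8.68, with Rps15 at -42.1 and Rps9 at 20.8.

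The promoter windows of 300 bases (250 before to 50 after each listed start) were searched on both strands for short motifs. The CTCF core searched was CCA, AG and GGC in that order, with 2 free bases in each gap. It was present in 2 of 47 member promoters (4.26%), against 2.43% of the 32851 mouse promoters and 9.37% of the 2167 promoters with a shared region at the start. The matches were CCAGCAGAGGGC in Rplp0 and CCAGAAGAGGGC in Rpl38, from 122 to 111 bases before its start. Both are among the 12 member promoters with a shared region at the start. Those 12, not all 47, are the set to place beside the 9.37%. The stricter form with GG in the second gap, which is contained in the first, matched none of the members and 0.371% of promoters. In the 41 bases around the summit, the shorter AGNNGGC, which is the last part of the core, was present at 3 of 8 members whose summit stretch lay within the window, at 41.3% of 1289 protein-coding starts with a shared region, and in 11.6% of promoters at a matched place 100 bases before the start. GGNGGC, which can overlap it, was present at 5 of the 8, at 47.9% and in 15.5%. These shorter searches were added after the summit sequences had been seen.

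Other promoter motifs were frequent in the members. The letters CTCTTTCC, a form of the pyrimidine-rich initiator, were present on either strand in 9 of 47 member promoters (19.1%), against 3.12% of all promoters. An initiator lies at the start, and the search did not require this. Matches lay at the listed start in Rpl28 (0 to 7) and Rpl18 (1 to 8). In Rpl11 the letters lay from 65 to 58 bases before the start, between the capitals and the start. Those of Rps21 and Rps19 were on the opposite strand, and those of Rpl6, Rpl26 and Rpl19 lay inside the gene. The ETS motif CCGGAAG, bound by ETS family activators, was present in 16 (34.0%), against 8.86%, and the YY1 motif AAGATGGC in 3 (6.38%), against 2.75%. A match is a description of the letters, not of binding, and a missing match says only that those letters are not in the window.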

How the data were processed

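CTCF ChIP-seq peaks of 4 mouse embryonic tissues were analysed, with 1 library per tissue. The authors trimmed and mapped reads and called peaks on mm10, using MACS2 2.1.1.20160309, SAMtools 1.9, Bowtie2 2.3.5 and cutadapt 1.16, per the submitters' processing notes. Options, filters and any control were not given in the sources used here. Each deposited peak carried a fold (a ratio of pileup to local background), a −log10 p-value and q-value, and a score; the lowest −log10 q-value deposited in any list was 1.3, which is a q of 0.05.

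Peaks listed more than once over the same interval were kept once, with the strongest summit. Peaks sharing at least 1 base were joined into regions, and distances ran from the region to the gene end. Gene spans came from the RefSeq gene table, and strands, starts and sequences from its promoter table. Ranks were percentiles by p within a list. Pileups were solved from fold and p with a pseudocount of 1, to within 0.00031 of the deposited −log10 p. With 1 library per tissue the spread between replicates is unknown. Intervals cover only counting error for shares and the spread between regions for medians.

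The members and the gene lists were chosen with earlier results of these data known, so shares are set beside the same share over all protein-coding genes and no test was made. Genes were named by rule: the 12 members whose shared region within 1 kb had the highest lowest percentile, all with a region in 1 tissue only, those just inside and outside 1 kb, and those with a shared summit within 300 bases of a start. Alternatives were a stricter q, lists of equal length, thinning to the same lowest local background with a common p, summit-based joining and distance, and other distances and windows. The rank comparison over shared regions, its alternatives and the count without posterior trunk were added after seeing the data. On simulated data, 200 of 200 placed regions were found and 4071 of 4071 pileups were recovered. Python 3.11.15, pandas 2.3.3, numpy 2.4.6 and scipy 1.17.1 were used.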

Additional observations from a re-analysis of the deposited data

How the results depend on the processing

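No paired analysis was possible because no tissue had more than 1 library. For the same reason no replicate could be left out, and only counting error and processing could be varied. Among 72 alternative values of the results on the members, 66 stayed within the 95% interval of the share or of the median, and 6 fell outside it. These intervals are wide and the alternatives reuse the same genes and peaks, so this count does not measure stability. The share with a region called in all 4 tissues became 40.4% within 500 bases (22.5% of all protein-coding genes). That value still lay inside its interval of 40.1% to 69.8%. A change of direction was looked for only in the rank difference between posterior trunk and forelimb, and none was found. At the members' starts the interval of this difference was wide, from -31.8 to 0.562 points. The share of members with a region within 1 kb, 76.6%, became 59.6% within 500 bases and 61.7% without posterior trunk, when the shares of all protein-coding genes were 39.3% and 38.6%. The share with a region called in all 4 tissues, 55.3%, became 70.2% within 2 kb (39.2% of all protein-coding genes), and was again 55.3% with a stricter q, with lists of equal length, after thinning and with summit-based joining. Of the regions in the windows, the percent called in all tissues, 58.3, became 70.9 with lists of equal length and 74.5 without posterior trunk, and the percent in posterior trunk only, 20.8, became 5.22 with lists of equal length. The same moves were seen over all regions, where 42.4% became 58.0% and 59.6%, and 28.4% became 6.48%. The median rank difference at the members' starts, -10.7 points, ran from -22.8, ranked by fold, to -11.2 under its alternatives. After thinning with a common p, 5 of the 13 regions seen in posterior trunk only near the members were not called; the thinning and the common p were not separated, and the distal forelimb list, which was not thinned, went from 64793 to 62005 peaks.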

Other observations

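Many ribosomal protein genes have processed pseudogenes, copies of the mRNA inserted elsewhere in the genome without the parent promoter. Of 306 ribosomal protein pseudogenes in the RefSeq table, 7 (2.29%) overlapped a CTCF region of any tissue and 1 (0.327%) overlapped a region called in all 4 tissues. Over all 10609 pseudogenes, 7.8% and 3.58% did so. The ribosomal protein pseudogenes had a median length of 526 bases, against 921 bases for all pseudogenes, so a shorter target goes with the lower share, and the part of length was not tested.

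Promoters of the members had a median GC content of 59.0%, against 56.3% for protein-coding promoters and 52.7% for all promoters. Among the members, 12 promoters with a shared region at the start had a median of 57.3%, and the other 35 had 59.3%. At the 3′ end, 9 of 10 shared regions of the members ranked lower in posterior trunk than in forelimb, with a median difference of -10.3 points, where 54.2% of the shared regions at the 3′ ends of all protein-coding genes did so, with a median of -0.919. These values were looked at after the rest and were not tested.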
